A study of Homo sapiens with 2 samples.

Results

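The TGF-beta and BMP response genes described here are 10 genes, BMP2, BMP4, ID1, ID2, ID3, SMAD6, SMAD7, PMEPA1, CDKN1A and CDKN2B. They were taken by gene symbol from 11057 named genes with a value on at least 1 array, and all 10 had a value on both arrays. They were read by 11 probes, of which CDKN2B had 2 and the other genes 1 each, and PMEPA1 was listed under its older symbol TMEPAI. The cells were 293T, a human embryonic kidney line that carries the SV40 large T antigen, which binds p53 and the retinoblastoma protein. Treated cells received 10 µM Y27632, which inhibits ROCK1 and ROCK2 kinase activity, for 3 h on one dual-colour array and for 6 h on the other, and were labelled with Cy3. On both arrays the partner was untreated 293T at 0 h, labelled with Cy5, so that the inhibitor cannot be told apart from time in culture, handling or vehicle. Whether 1 preparation of control RNA served both arrays is not in the labels.

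TGF-beta and BMP ligands are secreted dimers that bring together type I and type II receptor kinases. The active receptors phosphorylate SMAD proteins, TGF-beta receptors mainly SMAD2 and SMAD3 and BMP receptors mainly SMAD1, SMAD5 and SMAD9, which enter the nucleus with SMAD4. ID1, ID2 and ID3 are classical direct BMP targets, SMAD6, SMAD7 and PMEPA1 are induced inhibitors of the same pathway, and CDKN1A and CDKN2B are the targets through which TGF-beta halts epithelial cells in G1.

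Each value below is a deposited log ratio of the channels, read as log2. Neither the base nor which channel is the numerator is given in the sources used here, and signs were kept as deposited. If treated cells are the numerator, a negative value is a lower level after treatment, and if control cells are, it is a higher one. There was 1 array per time and no dye swap, so no value has a replicate and no test across samples was possible. The number of arrays limits the precision. Over 572 genes with several probes, the SD between probes of one gene was 0.31 on the 3 h array and 0.33 on the 6 h array. No other error was available, and this one leaves out the spread between cultures. A ratio holds no expression level, so whether a gene was expressed in these cells, and whether the line showed its defining markers, could not be read from it. RNA per cell and the number of cells expressing a gene cannot be told apart either.

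The sequences just before the transcription starts of the 3 ID genes, SMAD6 and CDKN2B are shown because the ID genes did not share one sign, SMAD6 holds the full palindrome bound by SMAD proteins, and CDKN2B had the value farthest from 0. Each is the 250 bases before a RefSeq start in GRCh38.p14, 5′ to 3′ on the gene's strand, and capitals mark GTCT or its reverse complement AGAC, the core recognised by SMAD3 and SMAD4. The windows are chr20:31605039-31605288 on the plus strand for ID1, chr2:8681806-8682055 on the plus strand for ID2, chr1:23559502-23559751 on the minus strand for ID3, chr15:66701986-66702235 on the plus strand for SMAD6 and chr9:22009306-22009555 on the minus strand for CDKN2B.
ID1: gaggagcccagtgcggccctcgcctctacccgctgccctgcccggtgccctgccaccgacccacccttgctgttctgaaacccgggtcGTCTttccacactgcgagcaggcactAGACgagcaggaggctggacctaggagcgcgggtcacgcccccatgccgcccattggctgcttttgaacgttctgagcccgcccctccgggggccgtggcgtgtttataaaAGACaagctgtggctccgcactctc
ID2: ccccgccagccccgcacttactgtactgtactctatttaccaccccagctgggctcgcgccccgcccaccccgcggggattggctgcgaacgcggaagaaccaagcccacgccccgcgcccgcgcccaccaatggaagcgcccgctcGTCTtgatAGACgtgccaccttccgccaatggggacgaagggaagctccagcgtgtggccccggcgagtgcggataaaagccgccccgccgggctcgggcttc
ID3: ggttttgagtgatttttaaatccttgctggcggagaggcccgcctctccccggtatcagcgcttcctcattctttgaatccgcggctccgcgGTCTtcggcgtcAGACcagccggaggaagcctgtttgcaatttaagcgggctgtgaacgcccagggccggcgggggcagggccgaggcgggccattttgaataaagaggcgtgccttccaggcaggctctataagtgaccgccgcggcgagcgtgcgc
SMAD6: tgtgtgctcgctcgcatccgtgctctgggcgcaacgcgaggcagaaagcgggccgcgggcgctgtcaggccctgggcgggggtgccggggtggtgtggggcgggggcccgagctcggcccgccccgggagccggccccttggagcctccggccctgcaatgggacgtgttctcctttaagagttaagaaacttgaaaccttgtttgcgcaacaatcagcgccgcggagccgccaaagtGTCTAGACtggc
CDKN2B: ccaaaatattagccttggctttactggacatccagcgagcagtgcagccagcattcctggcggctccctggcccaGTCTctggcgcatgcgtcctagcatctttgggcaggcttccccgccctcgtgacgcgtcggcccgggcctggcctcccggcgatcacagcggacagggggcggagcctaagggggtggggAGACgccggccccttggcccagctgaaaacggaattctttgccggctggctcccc

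Promoter entries matched 9 of the 10 genes, all but BMP2, at 16 start sites. The core GTCT or AGAC was found at 14 of those 16 starts and at 77.5% of all 35116 start sites, many of which belong to the same gene. The palindrome GTCTAGAC, which contains the core on both strands, was found at 1 of 16, that of SMAD6, where it began 12 bases before the start, and at 0.182% of all start sites. GGCGCC, a GC-rich element bound by BMP-activated SMAD proteins and its own reverse complement, was found at 2 of 16, 1 start each of BMP4 and PMEPA1, and at 16.4% of all. CAGCTG, an E-box of the kind bound by the basic helix-loop-helix factors that ID proteins block, was found before ID2, CDKN1A and CDKN2B and at 4911 of the 35116 start sites. Some of the starts, that of CDKN1A among them, lie inside the annotated gene. A match describes letters in these windows and is not a measured binding site.

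None of the 10 genes lay 1 unit or more from 0, a 2-fold difference, on either array or in the difference of the arrays, where 1.61%, 1.43% and 1.20% of all genes did. At 1.5-fold 1 of 10 was past the size in each, BMP2 at 3 h, CDKN2B at 6 h and PMEPA1 in the difference, beside 9.36%, 9.86% and 5.75% of all genes. If the values are natural logarithms, 1, 1 and 0 of the 10 were past a 2-fold size, beside 5.86%, 5.97% and 3.97% of all genes. If they are in base 10, 4, 4 and 5 were, beside 33.1%, 34.9% and 19.0%. At 3 h 7 of 10 values were negative and 3 positive, with a median of −0.26, against 47.5% negative and a median of 0.02 over 10810 genes. At 6 h 7 were negative, 2 positive and BMP4 was at 0, with a median of −0.21, against 47.3% negative and a median of 0.02 over 10716 genes. The 6 h median was −0.11 without the CDKN2B probe described below, −0.13 without CDKN2B and also −0.13 without PMEPA1, whose current symbol the platform annotation lacks. With all 10 genes it lay between ID3 at −0.29 and CDKN1A at −0.13, so leaving out any 1 gene below it gives −0.13. On both arrays 5 of 10 were negative, BMP2, ID1, ID3, CDKN1A and CDKN2B, against 36.3% of 10469 genes, and 1, ID2, was positive. These shares describe 10 genes whose list was drawn up with results of these arrays known. Both arrays may share a control, and treated and control cells carried the same dyes on both. The second array is therefore not independent support for the first. A sign kept on both arrays cannot be told apart from a dye effect.

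**Figure D1:**
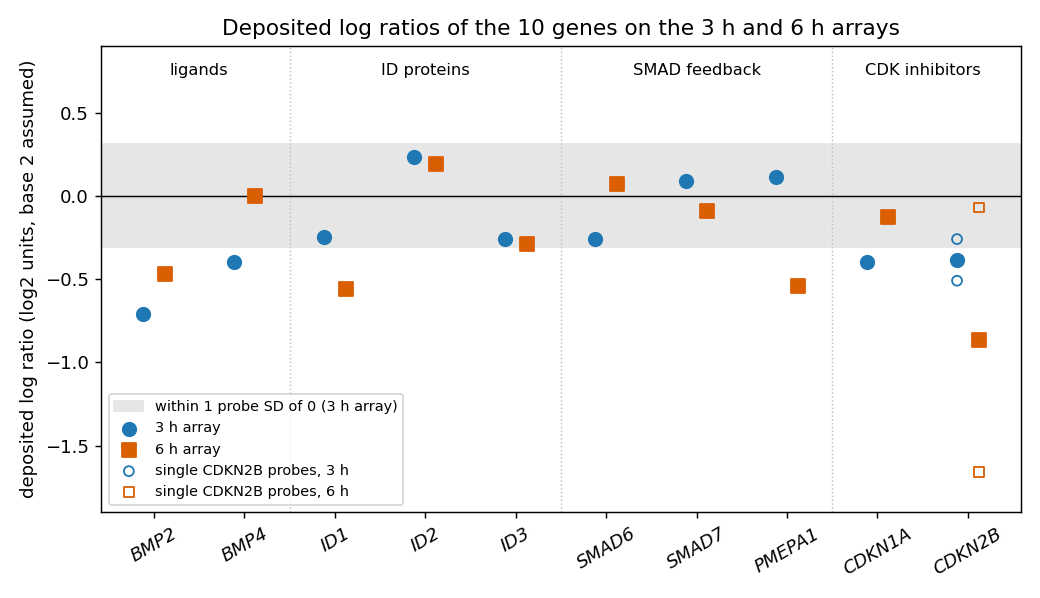
Deposited log ratio (vertical axis, log2 units) of each of the 10 genes on the 3 h array (circles) and the 6 h array (squares), grouped by role, with open symbols for the single CDKN2B probes and a grey band for values within 1 probe SD, 0.31, of 0. Most values lie at or below 0 and above −1, ID2 is the gene positive on both arrays, and the CDKN2B probes lie far apart at 6 h.

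Both ligand genes had negative values at 3 h. BMP2, which encodes a ligand of bone and heart formation, had −0.71 on the 3 h array and −0.47 on the 6 h array, which are 1.64-fold and 1.39-fold differences. Its 3 h value was the lowest of the 10, at the 2.84th percentile of all genes, and 2.29 times the probe SD. BMP2 thus kept its sign, and its size was smaller at 6 h by 0.24. BMP4, a closely related ligand that patterns mesoderm and kidney, had −0.40 at 3 h and 0 at 6 h. Its difference, 6 h minus 3 h, was 0.40, the highest of the 10, at the 93.4th percentile. The ligand genes therefore had the same sign at 3 h and did not at 6 h.

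The ID genes encode helix-loop-helix proteins that lack a DNA-binding region and block basic helix-loop-helix factors by dimerising with them. ID1 had −0.25 at 3 h and −0.56 at 6 h, a 1.47-fold difference at 6 h and the 4.66th percentile. ID3 had −0.26 and −0.29, nearly the same value on both arrays. ID2 had 0.23 and 0.19, on the opposite side of 0. The 6 h value of ID1 was beyond 1 probe SD, as were 30.4% of all genes at that time, and both values of ID2 and of ID3 were within it. In the sequences printed above, ID1 held the core GTCT or AGAC 3 times, and ID2 and ID3 held it 2 times each. The core occurred at 77.5% of all start sites, and a link of these counts to the values was not tested.

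The induced inhibitors had values of either sign. SMAD6, which chiefly restrains BMP receptors, had −0.26 at 3 h and 0.07 at 6 h. SMAD7, which restrains both branches and brings ubiquitin ligases to the TGF-beta receptor, had 0.09 and −0.09, close to 0 on both arrays. PMEPA1, a membrane protein that binds SMAD2 and SMAD3 and keeps them from the receptor, had 0.11 at 3 h and −0.54 at 6 h. Its difference, 6 h minus 3 h, was −0.65, a 1.57-fold change of the ratio at the 2.10th percentile and the farthest from 0 among the 10. That difference was 2.17 times the SD of such differences between probes of one gene, 0.30. All 3 inhibitors had opposite signs on the 2 arrays, as did 20.8% of all genes. Both values of SMAD6 and both of SMAD7 lay within 1 probe SD of 0, as did the 3 h value of PMEPA1.

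The CDK inhibitor genes were negative on both arrays, as were 36.3% of all genes with both values. CDKN1A encodes p21, which binds cyclin and CDK2 and is also a target of p53. It had −0.40 at 3 h and −0.13 at 6 h, at the 9.37th and 32.5th percentiles, and the 6 h value was within 1 probe SD of 0. CDKN2B encodes p15, an inhibitor of CDK4 and CDK6, and its mean over 2 probes was −0.39 at 3 h and −0.87 at 6 h, at the 10.0th and 1.32nd percentiles. Its probes differed. Probe H200005804 had −0.26 and −0.07, and probe opHsV0400004112 had −0.51 and −1.66, a 3.16-fold difference at 6 h. The mean at 6 h therefore lay between a probe near 0 and a probe past the 2-fold size. Without the second probe, CDKN2B had −0.07 at 6 h, and its difference, 6 h minus 3 h, was 0.19 in place of −0.48. The gap between its probes was 0.25 at 3 h, equal to the median gap of 0.25 over 496 genes with exactly 2 probes on both arrays. At 6 h the gap was 1.59 against a median of 0.27, and 2 of the 496 genes, CDKN2B included, had a gap as large.

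**Figure D2:**
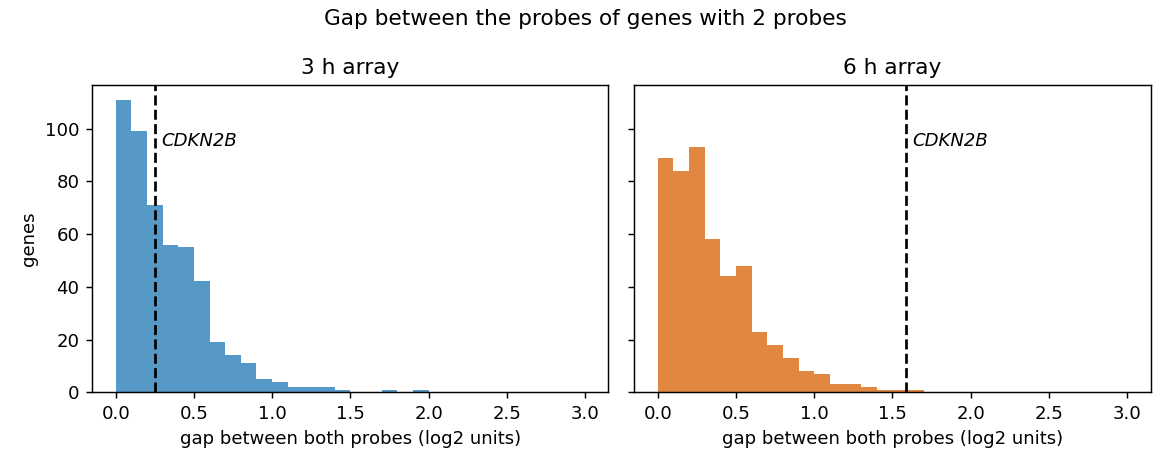
Histograms of the absolute gap between both probes (horizontal axis, log2 units; vertical axis, number of genes) for 496 genes with 2 probes, on the 3 h array (left) and the 6 h array (right), with a dashed line at CDKN2B. The CDKN2B gap sits in the body of the distribution at 3 h, 0.25, and at its far end at 6 h, 1.59.

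Between the times, 6 of 10 differences, 6 h minus 3 h, were negative and 4 positive, with a median of −0.04, against 51.2% negative and a median of −0.01 over all genes. PMEPA1, CDKN2B and ID1 had the lowest differences at −0.65, −0.48 and −0.31, and BMP4, SMAD6 and CDKN1A the highest at 0.40, 0.33 and 0.27. ID2 and ID3 differed by −0.04 and −0.03. Beyond 1 probe SD lay 4 genes at 3 h, BMP2, BMP4, CDKN1A and CDKN2B, and 4 at 6 h, BMP2, ID1, PMEPA1 and CDKN2B. The shares of all genes beyond it were 33.0% and 30.4%. In the difference 5 of 10 lay beyond it, BMP4, ID1, SMAD6, PMEPA1 and CDKN2B, beside 19.9% of all genes. ID1 and SMAD6 passed it narrowly, at 1.04 and 1.10 times the SD. Probe H200005804 of CDKN2B lay within 1 probe SD each time, with 0.19 in the difference against −1.15 for the other probe. Time and array cannot be told apart in this difference.

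**Figure D3:**
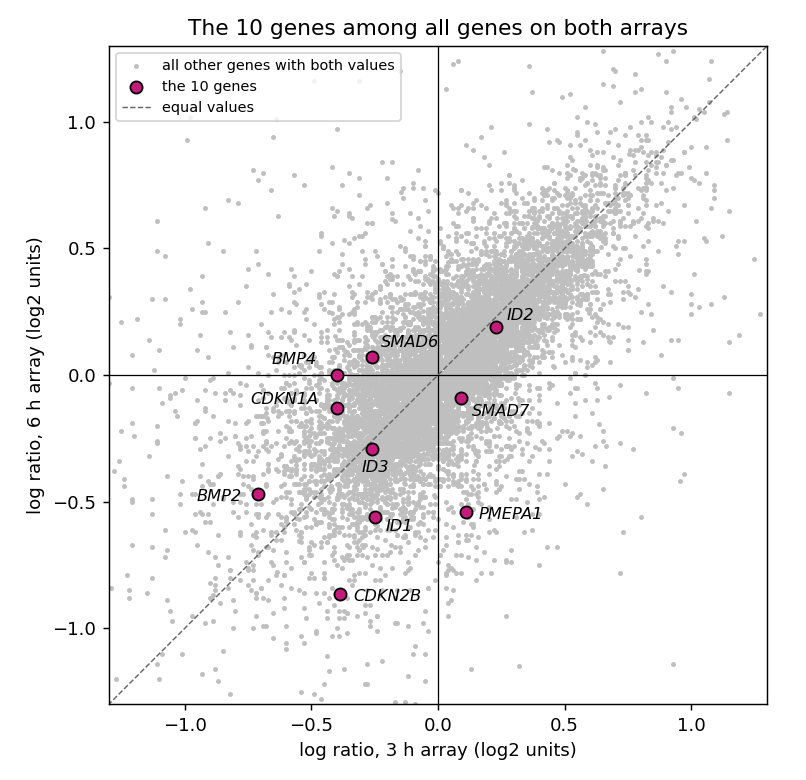
Log ratio on the 3 h array (horizontal axis) against the 6 h array (vertical axis), both in log2 units, for the 10 genes (labelled points) and all other genes with both values (grey); the axes end at 1.3 units and 65 genes beyond them are not drawn. BMP2, ID1, ID3, CDKN1A and CDKN2B lie in the lower left, ID2 in the upper right, and PMEPA1 lies well below the line of equal values.

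Ranked by the smaller of a gene's sizes on the 2 arrays, with the mean over probes, BMP2 came first among the 10. By mean of both arrays CDKN2B lay farther from 0, at −0.625 against −0.59, and with the probe farthest from 0 it also came first by the smaller size. By distance over both arrays the genes most like BMP2 were TRIM8, with the same −0.71 and −0.47, then CYP4F30P at a distance of 0.0361, and F10 and UNC5B, both at 0.0412. With only 2 arrays, 29 genes lay within 0.1 of BMP2, so likeness of this kind separates few genes.

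The rest of the pathway was described by lists drawn up by role. Of 32 genes listed as other ligands, 25 had a value at 3 h and 22 at 6 h. Of these 15 and 13 were negative, with medians of −0.05 and −0.16. The list and its counts include BMP1, at −0.13 and −0.075, which encodes a protease and not a ligand of the family. Some of these genes lay far from 0. GDF7 had 1.38 at 3 h and 0.51 at 6 h, GDF5, a joint-forming ligand, had −1.19 and 0.22, and MSTN, the muscle growth inhibitor myostatin, had −0.37 and −1.16. Each was past the 2-fold size on 1 array only. Receptor genes had medians near 0, at 0.07 and 0.03 over 13 genes, with 5 and 6 negative. TGFBR1, the type I receptor of TGF-beta, had 0.57 and 0.43 and ACVRL1, an endothelial type I receptor, −0.26 and −0.24.

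The SMAD genes that carry the signal had medians of 0.06 and 0.15 over 5 genes, of which 0 were negative at 3 h and 1 at 6 h. SMAD5 had 0.44 and 0.24, and SMAD9 0.04 and −0.11. Extracellular antagonists and intracellular regulators had medians of −0.01 and 0.01 over 21 genes at each time, with 11 and 10 negative. NOG, which encodes the BMP antagonist noggin, had −0.47 and −0.37, and TWSG1, a BMP-binding modulator, 0.64 and 0.62. Other target genes had medians of −0.12 and −0.17 over 16 genes at each time, with 10 negative at each. DLX5, a homeobox gene of bone, had −0.50 and −0.32, and CCN2, which is also a target of YAP, had 0.55 and 0.31. RUNX2, the master regulator of bone, had 1.35 at 6 h and no value at 3 h.

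Further lists held genes named like CDKN1A and CDKN2B, and basic helix-loop-helix genes, the class of factor that ID proteins block. Genes named as other CDK inhibitors had medians of 0.10 and 0.12 over 6 genes, with 2 negative at each time. The shared negative sign of CDKN1A and CDKN2B was thus not that of most of the listed genes. CDKN1C had −0.60 and −0.57. CDKN3, which encodes a phosphatase and is no relative of the other inhibitors, had 0.53 and 0.37. Basic helix-loop-helix genes had medians of −0.09 and −0.09 over 8 genes, with 5 and 4 negative. HAND1 had −0.61 and −0.79, and TCF4, an E protein bound by ID proteins, 0.25 and 0.09. Marker lists of cell types were read on the same arrays. All 4 endothelial markers were negative on both arrays, with medians of −0.39 and −0.48 and a range of −0.72 to −0.11 at 3 h. Kidney epithelial markers had 5 of 6 negative at 3 h and 4 of 6 at 6 h, with medians of −0.41 and −0.10. Neuronal intermediate filament genes, which this line is known to express, had 2 of 4 negative at each time, with medians of −0.07 and −0.15. The 4 fibroblast markers had 2 values at 3 h, −0.16 and −0.01, and 1 at 6 h, −0.24, and the blood markers had 1 value, CD3E, at 0.03 and −0.12. The part of these in the values of the 10 genes was not tested.

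**Figure D4:**
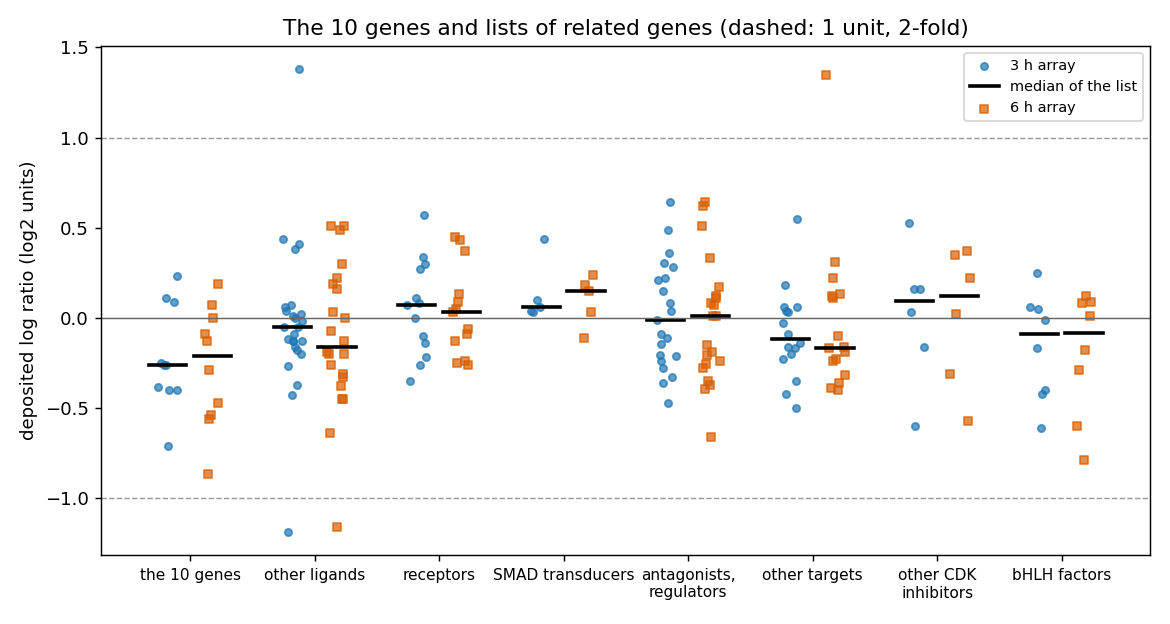
Deposited log ratio (vertical axis, log2 units) of each gene in the 10-gene set and in 7 lists of related genes, on the 3 h array (circles) and the 6 h array (squares), with black bars for list medians and dashed lines at 1 and −1. The median of the 10 genes is the lowest of the plotted lists at 3 h, −0.26, and other ligand genes have the widest range at that time. At 6 h the median of all 10 genes, −0.21, is also the lowest, and it lies between ID3 at −0.29 and CDKN1A at −0.13. It is −0.11 without 1 CDKN2B probe. Leaving out any 1 gene below the median gives −0.13, against −0.17 for other targets.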

How the data were processed

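The authors deposited 1 log2 ratio of the channels per probe and array (base 2 assumed from the size of the values) for 24267 probes, and 15.5% and 16.2% of them had no value at 3 h and 6 h. The deposited median over probes was 0 on each array, and how background and dye bias were handled and spots filtered is not given in the sources used here. Platform annotation named 1 gene for 13395 probes, several for 0, and symbols were updated through RefSeq synonyms (2446 probes). A gene's value is the mean over its probes. Genes were counted past a size of 1 unit, or 1.5-fold, and set beside the same count over all genes, with Python 3.11.15 and pandas 2.3.3. On simulated probes with a known SD, drawn independently for each array, the within-gene SD was recovered and large planted values at 3 h passed 1 unit. The other counts were not checked in this way. Motifs were searched on both strands. The 10 genes and the lists were chosen with earlier results of these data known. Named beside the 10 were, per pathway list, the genes with the lowest and highest mean of both arrays and any past 1 unit, and the 3 genes nearest to the member with the largest size kept on both arrays. Alternatives covered probe summary, centring, scale, log base, size, symbols and genes on both arrays.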

Additional observations from a re-analysis of the deposited data

Results flagged for a closer look

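Values of opposite sign at 3 h and 6 h drew attention for 3 of the 10 genes and for 2 of the pathway genes named above. Over all pathway lists 20 of 89 genes with both values, 22.5%, had opposite signs, beside 20.8% of all genes. With 1 array per time these differences, given as 6 h minus 3 h, were not tested. PMEPA1 had −0.65, SMAD6 0.33 and SMAD7 −0.18. GDF5 had 1.41 and SMAD9 −0.15. SMAD7 and SMAD9 lay within 0.11 of 0 on both arrays, and SMAD6 lay within 1 probe SD of 0 on both.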

How the results depend on the processing

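No paired analysis was possible because each time has 1 array, and for the same reason no replicate could be left out. The base of the logarithm and the size set the counts of the 10 genes past the size, which were 0 at 3 h, 0 at 6 h and 0 in the difference. With natural logarithms a 2-fold size gave 1, 1 and 0 (5.86%, 5.97% and 3.97% of all genes). With base 10 it gave 4, 4 and 5 (33.1%, 34.9% and 19.0% of all genes). A 1.5-fold size in base 2 gave 1, 1 and 1 (9.36%, 9.86% and 5.75% of all genes). With the probe farthest from 0 the counts at 6 h and in the difference were 1 and 1, through CDKN2B alone. Leaving out 1 CDKN2B probe, an alternative chosen after seeing the data, moved the median difference from −0.04 to 0.08. Centring on the median or mean of all named genes gave 8 negative genes at 6 h and 6 on both arrays, through BMP4. Over all alternatives that were run, the median of the 10 genes ranged from −0.28 to −0.26 at 3 h and from −0.23 to −0.11 at 6 h. Spot intensities were not used here, so no limit from signal over background could be set.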

Other observations

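These genes were chosen after their values were seen, as relatives of the 10. ID4, the fourth ID gene, had −0.20 at 3 h and −0.23 at 6 h, close to ID3 and opposite in sign to ID2. CDKN2A, which lies next to CDKN2B on chromosome 9 and encodes p16, had 0.16 and 0.22, opposite in sign to CDKN2B. CDKN1B, which encodes p27, had 0.16 and 0.35, opposite in sign to CDKN1A. BAMBI, a decoy receptor induced by the pathway, had −0.36 and −0.28, and SKIL, an induced nuclear repressor, had 0.28 and 0.64. All of these had 1 probe each, and none lay past the 2-fold size. Both values of ID4 and of CDKN2A lay within 1 probe SD of 0. So did the values of CDKN1B and SKIL at 3 h and of BAMBI at 6 h. Among the genes they were set beside, both values of ID2 and the 6 h value of CDKN1A also lay within it.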
